A study of Homo sapiens with 6 samples.

Results

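The 10 genes described here encode 3 receptors of the EGFR (ERBB) family (EGFR, ERBB2 and ERBB3), 5 EGF-like ligands (AREG, EREG, HBEGF, TGFA and BTC), the protease ADAM17 and the receptor inhibitor ERRFI1. They were chosen by gene symbol, and each symbol matched a single Ensembl identifier among the 30735 listed in every file. Expression was measured by RNA-seq in PANC-1, a line established from human ductal carcinoma of the pancreas. Cells grown in DMEM containing fetal bovine serum were transfected in serum-free medium, using a lipid reagent, with either CD73 siRNA (3 samples) or a negative control (3 samples), and every sample is of the same line. The study describes the samples of a group as separate knockdown experiments and names a single CD73 siRNA product. The labels give only a number from 1 to 3, called the replicate number here, and whether all 3 knockdown samples received the same siRNA duplex is not given in the sources used here. If they did not, the spread and the replicate block would also hold differences between duplexes. P-values set the difference between the groups against the spread between these samples.

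ERBB receptors are tyrosine kinases of the cell surface. EGF-like ligands are made as membrane-anchored precursors, are released by proteases such as ADAM17, and bind EGFR, which then pairs with another ERBB receptor and activates the RAS-ERK and PI3K-AKT pathways. The signal is limited by inhibitors that it induces, among them ERRFI1, and by ubiquitin ligases that direct the receptor to degradation. In pancreatic ductal carcinoma, EGFR and its ligands are known to be often expressed by the tumour cells. The comparison asked which of these transcripts differed when CD73, the cell surface protein encoded by NT5E, was knocked down.

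The values are in RPKM, that is, reads divided by exon length and by the reads counted in the library, so that levels of different genes can be compared per length. Library totals recovered from the values were between 15009113 and 16836207 reads. NT5E, the targeted gene, was at 3.36, 6.85 and 8.22 RPKM in the CD73 siRNA replicates and at 13.96, 13.87 and 17.14 RPKM in the controls, with no overlap between the groups. The knockdown was partial, the mean after CD73 siRNA being 41.0% of that in the controls. The log2 fold change of NT5E was -1.23 (SE 0.26, adjusted p = 0.303 in limma). Of 7 epithelial and ductal marker genes, 6 were above 1 RPKM in at least 3 samples and KRT7 reached at most 0.107 RPKM. The 7 summed to between 125 and 157 RPKM after CD73 siRNA and to between 188 and 299 RPKM in the controls, and KRT8 and KRT18 were the 2 that passed an unadjusted p of 0.01, both lower. KRT8 made up much of the difference in the sum, at 41.0 ± 9.57 and 104.5 ± 46.6 RPKM (SD, n = 3 each). SOX9 was instead higher without overlap, at 54.9 ± 1.05 and 47.7 ± 3.55 RPKM (SD, n = 3 each, log2 fold change 0.20, adjusted p = 0.438 in limma), and EPCAM had a log2 fold change of 0.03. Whether these differences had a part in the results below was not tested. Leukocyte and endothelial markers reached at most 0.231 RPKM in any sample, and PTPRC and PECAM1 were at or near 0. Of the fibroblast markers, COL1A1 was at 8.97 to 19.1 RPKM and COL3A1 at 6.12 to 14.7 RPKM with overlapping groups, while LUM reached at most 0.0415 RPKM.

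Levels of the family covered a wide range in both groups. ERRFI1 was the most abundant member, at 102 to 193 RPKM over the 6 samples, followed by EGFR at 23.7 to 48.3 RPKM, ADAM17 at 11.1 to 14.7 RPKM and ERBB2 at 7.80 to 10.1 RPKM, and the ranges of these 4 genes did not overlap. EREG, the leading ligand, ranged from 3.20 to 11.1 RPKM, and its range overlapped that of ERBB2. HBEGF was lower, at 1.22 to 3.07 RPKM, and ERBB3 lower again, at 0.727 to 1.15 RPKM. AREG (at most 0.485 RPKM), TGFA (at most 0.188 RPKM) and BTC (at most 0.0229 RPKM) closed the list, and the ranges of AREG and TGFA overlapped.

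**Figure D1:**
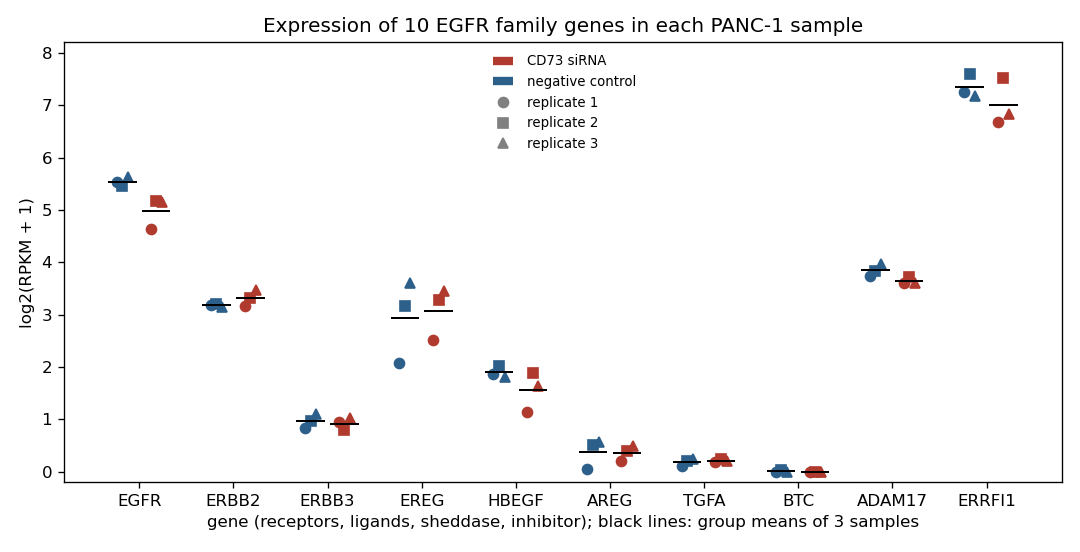
Expression of the 10 genes in each sample, as log2(RPKM + 1) on the vertical axis, with 3 negative control samples (blue) and 3 CD73 siRNA samples (red) per gene, the marker shape giving the replicate number and the black lines the group means. The 3 red points of EGFR and of ADAM17 lie below all 3 blue points, while the groups overlap in the other 8 genes.

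EGFR, the receptor for all 5 ligands, was the member with the smallest p, and its mRNA was lower after CD73 siRNA in every sample. It was at 23.7, 35.1 and 34.5 RPKM in CD73 siRNA replicates 1, 2 and 3, and at 45.0, 42.8 and 48.3 RPKM in the negative control replicates. The highest knockdown sample was thus below the lowest control, and replicate 1 was the lowest of the knockdown samples. Mean levels were 31.1 ± 6.40 RPKM (SD, n = 3) after CD73 siRNA and 45.4 ± 2.77 RPKM (SD, n = 3) in the controls, the first being 68.5% of the second. Since these are bulk samples, fewer cells expressing the gene and less RNA per cell cannot be told apart.

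The test for this difference was limma's moderated test on log2(RPKM + 1), fitted over the 12527 genes that reached 1 RPKM in 3 samples or more. EGFR had a log2 fold change of -0.55 (SE 0.16, 95% confidence interval -0.91 to -0.19), an unadjusted p of 0.00757 and an adjusted p of 0.305 in this limma fit. By p it was in position 308 of the 12527 genes. The exact permutation test gave p = 0.1 (two-sided), the smallest that 3 samples against 3 allow. Between 4772 and 9079 reads stood behind each value, so that counting error was small beside the spread between replicates. The call at an unadjusted p of 0.01 was lost on leaving out CD73 siRNA replicate 1 (log2 fold change -0.37) or any 1 of the controls (-0.56 without replicate 1, -0.59 without replicate 2, -0.51 without replicate 3). It was also lost without replicate 1 (-0.38) or replicate 3 (-0.59) of both groups and with no filter on low values (-0.55).

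**Figure D2:**
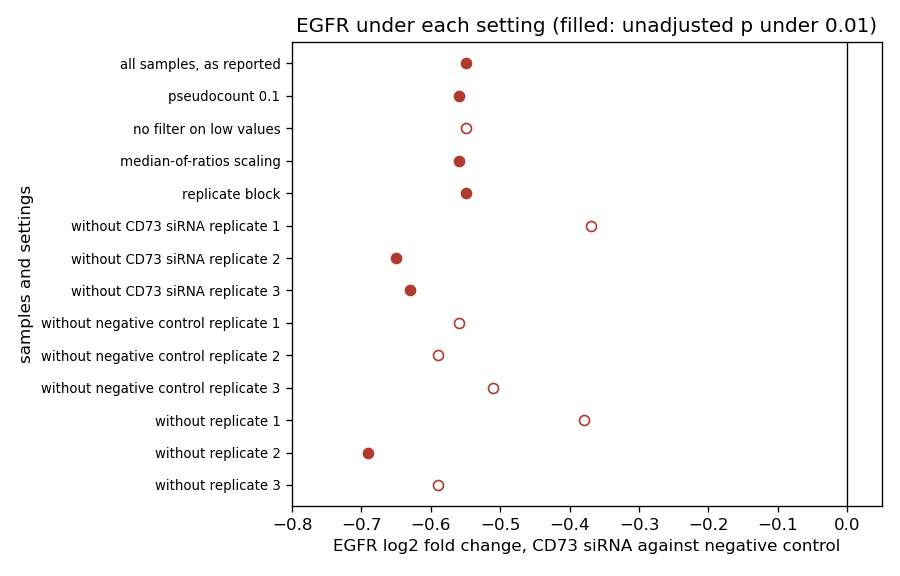
Log2 fold change of EGFR (CD73 siRNA against negative control, horizontal axis) under each setting and with samples left out (vertical axis), filled circles marking an unadjusted p under 0.01 in limma. All values are below 0, from -0.69 without replicate 2 of both groups to -0.37 without CD73 siRNA replicate 1.

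EGFR lies on the forward strand of chromosome 7 (chr7:55019021-55211628, GRCh38, GENCODE release 29), with 11 annotated transcripts and 12521 bases of merged exons. Of these bases, 186 are shared with the antisense gene EGFR-AS1. Whether reads were counted by strand is not given in the sources used here. EGFR-AS1 itself had 7 to 17 reads per sample and overlapping groups. The sequence before the EGFR start is shown because it belongs to the member with the smallest p. It runs from 250 to 11 bases before the first RefSeq start (GRCh38.p14, forward strand, chr7:55018767-55019006), with capitals for GC boxes.
EGFR: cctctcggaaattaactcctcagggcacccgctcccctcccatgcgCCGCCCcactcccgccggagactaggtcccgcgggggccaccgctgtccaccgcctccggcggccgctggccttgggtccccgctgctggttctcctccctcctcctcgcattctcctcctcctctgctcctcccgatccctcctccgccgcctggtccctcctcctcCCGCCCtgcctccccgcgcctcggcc
GC boxes (GGGCGG on either strand) start 204 and 36 bases before the EGFR start, both on the reverse strand. Such a motif was in 41.4% of 35116 windows of the same 240 bases. A TATA box, written TATAAA, was not found in this window on either strand.

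ERBB2 and ERBB3, the receptors that pair with EGFR, did not show its difference. ERBB2, which has no known EGF-like ligand of its own, was at 7.91, 8.96 and 10.1 RPKM after CD73 siRNA and at 8.13, 8.24 and 7.80 RPKM in the controls. The groups overlapped, with CD73 siRNA replicate 3 the highest sample. The log2 fold change was 0.14 (SE 0.11, 95% confidence interval -0.12 to 0.40, adjusted p = 0.651 in limma). Leaving out CD73 siRNA replicate 3 gave 0.06, and leaving out CD73 siRNA replicate 1 gave 0.22. Its exons share 571 bases with MIEN1 and 194 with PGAP3, both on the opposite strand.

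ERBB3, a neuregulin receptor whose kinase domain is nearly inactive, was at 0.927, 0.727 and 1.02 RPKM after CD73 siRNA and at 0.771, 0.967 and 1.15 RPKM in the controls. It reached 1 RPKM in fewer than 3 samples and was therefore not in limma's fit. The means were 0.892 ± 0.151 and 0.961 ± 0.188 RPKM (SD, n = 3 each, exact permutation test, p = 0.7), on about 103 to 156 reads per sample.

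Because EGFR and ERBB2 moved differently, their ratio was computed in each sample, a measure chosen after the values were seen. EGFR was 3.0, 3.91 and 3.41 times as high as ERBB2 after CD73 siRNA, and 5.54, 5.19 and 6.20 times as high in the controls. The ratio averaged 3.44 ± 0.459 and 5.64 ± 0.508 (SD, n = 3 each), a difference of -0.72 on the log2 scale. No test is given for it, since it was formed from the difference already seen.

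Among the ligands, EREG (epiregulin), which binds EGFR and ERBB4, was the most abundant and was ordered by replicate number within each group. It was at 4.68, 8.67 and 9.90 RPKM in CD73 siRNA replicates 1, 2 and 3, and at 3.20, 7.99 and 11.1 RPKM in the controls with these numbers. Both replicates numbered 1 were the lowest of their group and both numbered 3 the highest, and the groups overlapped almost fully. The highest sample was 3.47 times the lowest. The log2 fold change was 0.13 (SE 0.39, 95% confidence interval -0.77 to 1.04, adjusted p = 0.919 in limma), an interval that holds changes of either direction. Its sign turned on leaving out CD73 siRNA replicate 3 (-0.05) or negative control replicate 1 (-0.31).

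AREG (amphiregulin), a ligand of EGFR, was close to the limit of detection. It had 4, 8 and 11 reads in the CD73 siRNA replicates and 1, 11 and 12 reads in the controls, or 0.151, 0.308 and 0.397 against 0.0378, 0.430 and 0.485 RPKM. Within each group the samples were ordered by replicate number as for EREG, although replicates 2 and 3 differed by only a few reads. Over all 6 samples the orders of the genes differed. No group difference was detectable at this depth (exact permutation test on log2 values, p = 0.9).

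EREG (chr4:74365143-74388751) and AREG (chr4:74445134-74455009) lie close together on the forward strand of chromosome 4, with an antisense gene between them, and BTC (chr4:74744759-74794686) lies farther along on the reverse strand (GENCODE release 29, GRCh38). The sequences before the EREG and AREG starts are shown because, within each group, both genes were lowest in replicate 1 and highest in replicate 3. In AREG this order rests on 1 to 12 reads per sample. How many of all tested genes had the same order was not counted. Whether the sequences have a part in it was not tested. The sequences come from RefSeq (GRCh38.p14, forward strand, chr4:74364895-74365134 and chr4:74444886-74445125), with capitals for the TATA box and, in AREG, the cAMP response element.
EREG: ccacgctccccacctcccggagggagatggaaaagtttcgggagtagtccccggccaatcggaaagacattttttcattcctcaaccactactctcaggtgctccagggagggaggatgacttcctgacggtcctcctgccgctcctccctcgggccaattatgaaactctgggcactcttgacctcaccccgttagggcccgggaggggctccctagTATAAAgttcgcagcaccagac
AREG: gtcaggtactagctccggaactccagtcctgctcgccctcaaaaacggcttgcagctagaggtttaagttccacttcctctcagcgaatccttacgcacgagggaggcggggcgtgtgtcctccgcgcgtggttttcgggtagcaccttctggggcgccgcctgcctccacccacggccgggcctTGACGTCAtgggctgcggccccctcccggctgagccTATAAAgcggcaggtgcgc
A TATA box (TATAAA, either strand) starts 32 bases before the EREG start and 29 bases before the AREG start, and 10.6% of the 35116 windows hold one. The cAMP response element TGACGTCA, which reads the same on both strands, starts 65 bases before the AREG start and is in 1.57% of the windows. Of the 10 genes, 9 had such a window, and of these only EREG and AREG held TATAAA. EPGN, an EGF-like ligand gene outside the 10, also held TATAAA, 29 bases before its start. Its 0 to 4 reads per sample did not follow the replicate number.

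The 3 tested genes whose profile over the 6 samples was nearest to that of EREG were looked up, as the root mean square difference of log2(RPKM + 1) after subtracting each gene's mean. They were the small RNA genes RNU6-531P (0.11) and MIR5581 (0.18), which rest on 1 to 7 and 2 to 7 reads per sample, and CBL (0.20), the ubiquitin ligase that marks activated EGFR for degradation. The median over all tested genes was 0.57, and EGFR itself was at 0.57. CBL had 3881 to 8349 reads per sample. It was at 25.4, 34.1 and 42.2 RPKM after CD73 siRNA and at 20.6, 31.8 and 41.9 RPKM in the controls. These 3 genes were picked for their nearness to EREG. The order of the CBL samples by replicate number, as in EREG, follows from this selection and is no separate result.

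**Figure D3:**
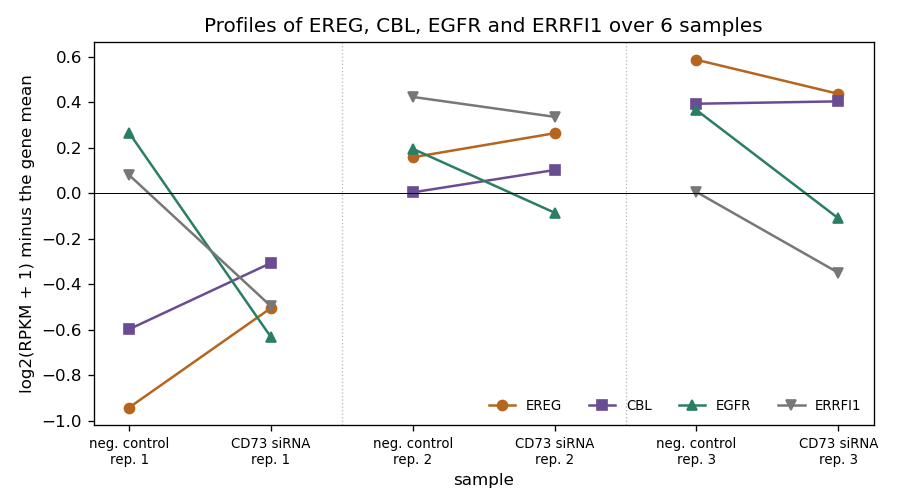
Log2(RPKM + 1) minus the gene's mean (vertical axis) for EREG, CBL, EGFR and ERRFI1 in the 6 samples, lines joining the negative control and CD73 siRNA samples of the same replicate number. EREG and CBL, a gene picked for its nearness to EREG, differ mainly between replicate numbers. EGFR and ERRFI1 are lower after CD73 siRNA within each number.

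HBEGF, the heparin-binding ligand of EGFR and ERBB4, was at 1.22, 2.67 and 2.11 RPKM after CD73 siRNA and at 2.62, 3.07 and 2.52 RPKM in the controls. CD73 siRNA replicate 1 was the lowest sample, and replicate 2 was above 2 of the controls, so that the groups overlapped. The log2 fold change was -0.35 (SE 0.19, 95% confidence interval -0.79 to 0.10, adjusted p = 0.495 in limma), on 59 to 144 reads per sample. Without CD73 siRNA replicate 1 it was -0.14.

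TGFA (transforming growth factor alpha) had 11, 14 and 12 reads in the CD73 siRNA replicates and 6, 12 and 14 in the controls, or 0.154 ± 0.0224 and 0.140 ± 0.0580 RPKM (SD, n = 3 each, exact permutation test, p = 0.9). BTC (betacellulin) had 1 read in negative control replicate 2 and 0 in the other 5 samples, where a count of 0 allows up to 3 reads, or 0.0633 to 0.0710 RPKM. These limits cover counting error only. Neither gene was abundant enough for a difference between the groups to be detected.

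ADAM17, the protease that sheds AREG, EREG, HBEGF and TGFA from the cell surface, was the other member whose groups did not overlap. It was at 11.2, 12.1 and 11.1 RPKM after CD73 siRNA and at 12.4, 13.3 and 14.7 RPKM in the controls. The gap between the groups was narrow, and the means were 11.5 ± 0.570 and 13.5 ± 1.13 RPKM (SD, n = 3 each). The log2 fold change was -0.21 (SE 0.10, 95% confidence interval -0.45 to 0.03, unadjusted p = 0.076, adjusted p = 0.454 in limma). Its exons share 1323 of 10750 bases with IAH1 on the opposite strand, and IAH1 had a log2 fold change of 0.12 (adjusted p = 0.727 in limma).

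ERRFI1 (also called MIG6) is induced by EGFR signalling and binds the kinase domain of the receptor to inhibit it. It was at 102, 181 and 112 RPKM after CD73 siRNA and at 152, 193 and 144 RPKM in the controls. Both replicates numbered 2 were the highest of their group, and CD73 siRNA replicate 2 was above 2 of the controls. The log2 fold change was -0.34 (SE 0.22, 95% confidence interval -0.84 to 0.16, adjusted p = 0.557 in limma). Without CD73 siRNA replicate 2 it was -0.59 and passed the threshold (adjusted p = 0.351 in limma), while without CD73 siRNA replicate 1 it was -0.18.

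**Figure D4:**
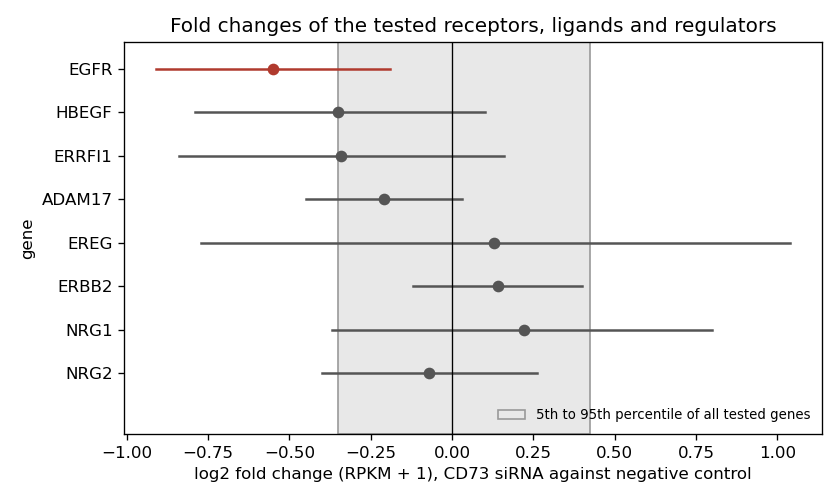
Log2 fold change (horizontal axis, CD73 siRNA against negative control) with its 95% confidence interval for the 6 members in limma's fit and for NRG1 and NRG2, red marking an unadjusted p under 0.01. The shaded span from -0.35 to 0.42 holds all tested genes between the 5th and the 95th percentile, and EGFR at -0.55 is the gene whose interval excludes 0.

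Counted over the family, 6 of the 10 members were abundant enough for limma's fit, and 1 of them, EGFR, passed an unadjusted p of 0.01. Over all genes tested, 3.13% passed this threshold (392 of 12527, of which 228 were higher and 164 lower). At an unadjusted p of 0.05 it was again EGFR alone, against 12.1% of all genes. No member had an adjusted p under 0.05 in limma, and 1 of the 12527 genes did. The median log2 fold change of the 6 members was -0.27, beside 0.01 over all tested genes. Groups without overlap and lower after CD73 siRNA were found in 2 of the 6 (EGFR and ADAM17), against 8.07% of all tested genes.

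Within replicate numbers, EGFR differed by -0.90, -0.28 and -0.48 in log2(RPKM + 1) for the samples numbered 1, 2 and 3. HBEGF differed by -0.71, -0.15 and -0.18, ERRFI1 by -0.58, -0.09 and -0.35, and ADAM17 by -0.13, -0.12 and -0.37. These 4 of the 6 tested members were lower after CD73 siRNA in each of the 3 numbers, as were 24.5% of all tested genes. ERBB2 (-0.03, 0.11 and 0.34) and EREG (0.44, 0.11 and -0.15) had differences of both signs. NT5E differed by -1.78, -0.92 and -0.98. Replicate 1 held the largest difference of NT5E, EGFR, HBEGF and ERRFI1, and also that of EREG, which was in the other direction. The largest difference of ADAM17 and of ERBB2 was in replicate 3. How many of all tested genes had their largest difference in replicate 1 was not counted.

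When limma's fit took replicate numbers as blocks (the replicate block), 948 genes (7.57%) passed an unadjusted p of 0.01, and EGFR was again the member among them (adjusted p = 0.113 in limma). The blocked fit left ERRFI1 (adjusted p = 0.14 in limma) and HBEGF (adjusted p = 0.207) short of it. The standard error of EREG fell from 0.39 to 0.12 with the block, the largest such drop among the 6 members, and its adjusted p was 0.544 in limma.

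**Figure D5:**
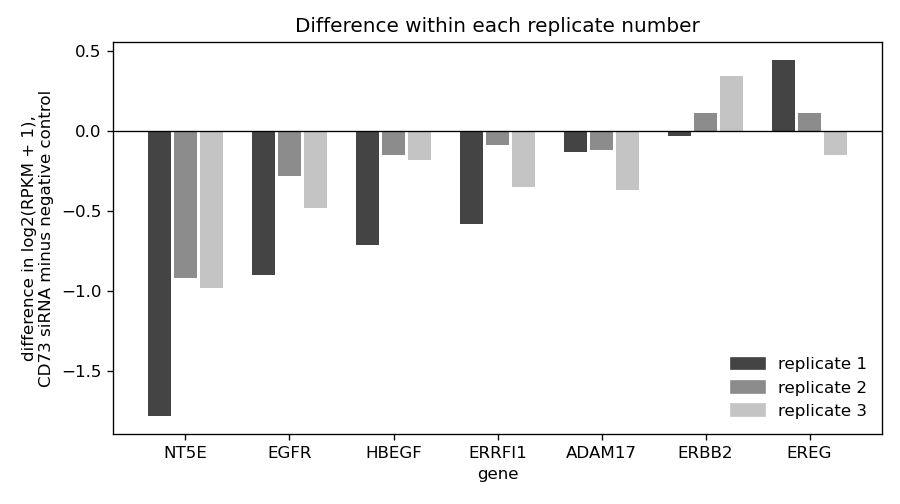
Difference in log2(RPKM + 1) between the CD73 siRNA and negative control samples of the same replicate number (vertical axis) for NT5E and the 6 tested members, 1 bar per number. The bars of EGFR, HBEGF, ERRFI1 and ADAM17 are below 0 in all 3 numbers, and those of ERBB2 and EREG are not.

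The remaining ERBB receptor and ligands were low or overlapping. ERBB4, a further neuregulin receptor, was at 0.980, 0.981 and 0.803 RPKM after CD73 siRNA and at 0.556, 0.905 and 0.630 RPKM in the controls (exact permutation test, p = 0.2). NRG1, a neuregulin that binds ERBB3 and ERBB4, was at 3.38, 4.45 and 2.36 RPKM against 2.12, 4.30 and 2.08 RPKM, a log2 fold change of 0.22 (SE 0.25, adjusted p = 0.757 in limma) that moved to 0.05 on leaving out CD73 siRNA replicate 2 and to 0.48 on leaving out negative control replicate 2. NRG2 had a log2 fold change of -0.07 (SE 0.14, adjusted p = 0.868 in limma). NRG4 stayed at or below 0.128 RPKM and EPGN (epigen) at or below 0.140 RPKM, and EGF itself had 1 read in all 6 samples together. No single identifier was matched to NRG3, so it was not tested.

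Genes around the receptor were grouped by role, in lists chosen with earlier results of these data known. Of 12 genes of ligand shedding and trafficking, 10 were tested and none passed an unadjusted p of 0.01 or of 0.05 in limma, with a median log2 fold change of -0.06. The iRhom genes RHBDF1 and RHBDF2, whose proteins carry ADAM17 to the cell surface, had log2 fold changes of -0.16 and 0.02 (adjusted p = 0.652 and 0.965 in limma). Of 19 genes listed under receptor attenuation, not all of them inhibitors, 14 were tested and none passed either threshold in limma (median 0.01). These included CBL, with a log2 fold change of 0.13 (adjusted p = 0.868 in limma).

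Of 16 receptor-proximal signalling genes, 15 were tested and 2 were lower at an unadjusted p of 0.01, with none higher (median -0.08), beside 1.31% of all tested genes that were lower at this threshold. The list's largest change was in the other direction, in the phosphatase gene PTPN11 (log2 fold change 0.72, adjusted p = 0.382 in limma, groups without overlap), a gene singled out after its values were seen. PIK3CB, a catalytic subunit of PI3-kinase, was at 9.75, 12.02 and 11.8 RPKM after CD73 siRNA and at 17.7, 14.9 and 16.4 RPKM in the controls, a log2 fold change of -0.51 (SE 0.12, adjusted p = 0.303 in limma). CRK, an SH2 adaptor, was at 29.8, 33.0 and 37.3 RPKM against 43.2, 42.7 and 44.2 RPKM, a log2 fold change of -0.37 (SE 0.11, adjusted p = 0.305 in limma). In both genes, each knockdown sample was below each control. The call was lost without CD73 siRNA replicate 1 (PIK3CB -0.42, CRK -0.30) or negative control replicate 1 (-0.45 and -0.38), and for CRK also without CD73 siRNA replicate 2 (-0.37) or negative control replicates 2 (-0.38) or 3 (-0.36). It was also lost without both samples of a number, 1 (-0.36) or 3 (-0.54) for PIK3CB and any of the 3 for CRK (-0.30 to -0.44). The adaptors that first bind EGFR, GRB2 and SHC1, had log2 fold changes of -0.22 (adjusted p = 0.481 in limma) and -0.08 (adjusted p = 0.776).

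Of 16 genes that ERK signalling induces, 14 were tested and 13 had values below 0, with a median log2 fold change of -0.30, while 48.0% of all tested genes had values below 0. CCND1 (cyclin D1) was the 1 that passed an unadjusted p of 0.01, at -0.83 (SE 0.18, adjusted p = 0.303 in limma), beside 1.31% of all tested genes that passed it and were lower. It lost the call without replicate 3 of both groups (-0.84). The list was chosen with earlier results of these data known, so comparing it with all tested genes is no independent test. With the replicate block 7 of the 14 passed, all lower, against 3.3% of all tested genes that were lower. They were CCND1, the phosphatases DUSP5 and DUSP6, the feedback inhibitor SPRY4, and PHLDA1, EGR1 and MYC, with blocked adjusted p-values in limma from 0.113 (CCND1) to 0.13 (DUSP5). EGR1, an immediate-early transcription factor, was at 1.90, 9.15 and 2.12 RPKM after CD73 siRNA and at 7.63, 11.02 and 4.37 RPKM in the controls, with both replicates numbered 2 the highest of their group. The within-number differences of DUSP6, the phosphatase of ERK, were -0.68, -0.21 and -0.50.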

How the data were processed

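RNA-seq values of 6 PANC-1 samples (3 CD73 siRNA, 3 negative control) were used, grouped by their titles. The authors deposited 1 table per sample with a normalized value per Ensembl gene, read here as RPKM. The submitters' processing notes name bcl2fastq, Bowtie2 2.2.3, HTSeq 0.6.0 and hg38, without roles. The annotation and the strand setting are not given in the sources used here. The unit rests on the values. Times the merged exon length of GENCODE release 29, they lay within 0.02 of whole multiples of a step in 95.1% to 95.2% of genes under 1000 reads. The step gave library totals and reads. For ERBB3 and ADAM17 the reads came out up to 0.44 and 0.28 from whole and are approximate. Symbols were found for 30384 of 30735 identifiers.

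Genes reaching 1 RPKM in 3 samples or more were tested on log2(RPKM + 1) with limma 3.58.1 (R 4.3.3, trend) and Benjamini-Hochberg adjustment over all 12527. The threshold for a call was an unadjusted p of 0.01. The study also names p under 0.01 for changed genes, without the test or any adjustment. The pseudocount understates changes of low genes. Scripts were tested on simulated data. Members and gene lists were chosen with earlier results of these data known. Named genes were all members, other ERBB receptors and ligands, list genes past the threshold (at most 4 per list) and the 3 genes nearest in pattern to the most variable tested member. IAH1, RHBDF1, RHBDF2, GRB2, SHC1 and the genes past the threshold under the block were named besides, after their values were seen. Alternatives were a pseudocount of 0.1, no filter, median-of-ratios scaling, the replicate block and leaving out each sample. Leaving out both samples of a number was added after seeing the data.

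Both groups carry the numbers 1 to 3 in their titles. Deviations from the group means correlated across genes at 0.20, 0.48 and 0.55 between same-numbered samples. Between samples of different numbers the correlations were from -0.44 to -0.01. Deviations within a group sum to 0, which ties these values to each other. The numbers were taken to pair the samples on these values, and the labels do not state a pairing.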

Additional observations from a re-analysis of the deposited data

How the results depend on the processing

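The count of genes past an unadjusted p of 0.01 was 392 in limma and 948 with the replicate block. With 1 sample left out it was between 116 (CD73 siRNA replicate 1) and 792 (negative control replicate 2), being 188 without negative control replicate 1 and 258 without negative control replicate 3, and with both samples of a number left out it was 70 (number 1), 134 (number 3) and 532 (number 2). The count of members past it was 0 with no filter on low values, where EGFR stayed at -0.55 (adjusted p = 0.661 in limma), and 0 to 2 with samples left out. EGFR then ranged from -0.69 to -0.37 and kept its direction under every alternative run, EREG from -0.31 to 0.46, ERRFI1 from -0.59 to -0.18, NRG2 from -0.18 to 0.01, GAPDH from -0.05 to 0.06 and NRG1 from 0.05 to 0.48. EREG, NRG2 and GAPDH thus took either sign, as did the low members ERBB3 (-0.14 to 0.02), AREG (-0.19 to 0.07) and TGFA (-0.02 to 0.06). The adjusted p of EGFR was between 0.17 and 1 in these limma fits. The cause of these shifts was not tested. The pseudocount of 0.1 and the median-of-ratios scaling changed no call among the members. The replicate block changed no call among the genes named by the rule. Of the 14 tested ERK-induced genes, however, 7 passed with it, against 1 without it. Few reads limit AREG, TGFA and BTC.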

Other observations

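PTPN11, the phosphatase SHP2 that relays signals from EGFR to RAS, was higher after CD73 siRNA in every sample, a gene singled out after its values were seen. It was at 43.8, 46.7 and 50.8 RPKM in the CD73 siRNA replicates and at 16.2, 39.5 and 34.3 RPKM in the controls. Negative control replicate 1 was the lowest sample by a wide margin. The log2 fold change was 0.72 (SE 0.29, unadjusted p = 0.0358, adjusted p = 0.382 in limma), with differences of 1.38, 0.24 and 0.55 within the replicate numbers.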
